A study of Mus musculus with 3 samples.

Results

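The Hippo pathway was examined in primary epidermal keratinocytes of neonatal mice through its core kinases, its effector YAP and genes that YAP activates. The genes taken were Stk3, Stk4, Sav1, Lats1, Lats2, Yap1, Ccn2 (also called Ctgf), Ccn1 (also called Cyr61), Ankrd1 and Amotl2, taken by name. Every probe set that the platform annotation ties to exactly 1 of these symbols was used, which gave 23 probe sets of 45037 that are not controls. They cover 9 of the 10 genes. Stk3 has no probe set of 1 symbol in the annotation used here, so no value is given for it. The cells came from skin of ICR mice, either wild type (WT, 1 array) or homozygous for the RASSF9 disruption (RASSF9-/-, 2 arrays, called array 1 and array 2 here). The disrupted allele arose when an LMP1 transgene of Epstein-Barr virus inserted in an intron of Rassf9 and removed a segment of it, so the RASSF9-/- cells also carry the transgene. All RASSF9-/- cells derive from this single insertion line. The methods give 1 culture plate of confluent cells for each sample, kept in a serum-free medium with low calcium. Expression was read on Affymetrix Mouse Genome 430 2.0 arrays as MAS5 signals, an intensity on a linear scale. In the methods the culture time is 48 h for every sample, but the deposited labels give RASSF9-/- 48 h and WT 24 h. Under the times of the labels, culture and genotype cannot be told apart.

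The Hippo pathway is a kinase cascade that limits growth. The MST kinases, encoded by Stk3 and Stk4, bind the scaffold Sav1 and activate the LATS kinases, encoded by Lats1 and Lats2. Active LATS kinases phosphorylate YAP, which is then kept out of the nucleus. Unphosphorylated YAP enters the nucleus, pairs with TEAD factors on DNA and raises the transcription of genes such as Ccn1, Ccn2, Ankrd1 and Amotl2. In the epidermis, YAP acts in basal keratinocytes and favours their proliferation. Several proteins of the RASSF family meet the MST kinases through a shared SARAH domain, which the N-terminal members, among them RASSF9, lack. Phosphorylation and the place of YAP in the cell are not visible to an array of transcripts.

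TEAD factors bind DNA at the motif GGAATG, and copies of it near the start sites are shown for the genes known as YAP targets, because these are the genes whose signals are compared as readouts of YAP. In the RefSeq windows of assembly GRCm38.p6, from 250 bases before to 50 after the start site, 8 of the 10 genes have an entry, and Stk3 and Ccn2 are not among them. The motif was searched as GGAATG and, for the other strand, CATTCC. It occurred in 6 of the 8 genes, which were Sav1, Lats2, Yap1, Ccn1, Ankrd1 and Amotl2, beside 16.6% of all 27025 genes with an entry, and in 14.7% of all 32851 windows. The copies of the 3 target genes and of Lats2, which is a kinase gene and also a YAP target, are printed 5' to 3' on the strand of the gene with the motif in capitals.
Ccn1, chr3:145650072-145650099, minus strand: gcgccaaccaaCATTCCtgagatgtttg
Ankrd1 distal copy, chr19:36120038-36120065, minus strand: tcactgccaaaGGAATGaccctctcaca
Ankrd1 proximal copy, chr19:36119951-36119978, minus strand: acactaagtctGGAATGaaaattcacct
Amotl2, chr9:102717728-102717755, plus strand: tgaaactctcaCATTCCtggcatagcag
Lats2, chr14:57746103-57746130, minus strand: gtgacgcccgtGGAATGccaacaatgta
The motif began 103 bases before the start site in Ccn1, 210 and 123 bases before it in Ankrd1 and 65 bases before it in Amotl2, and in Lats2 it began at base 5 of the transcript. A match of these letters is a description of the window and does not show that a factor binds there.

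The arrays were alike in scale, with a trimmed mean of 500 on each and median signals from 81.7 to 99. WT and RASSF9-/- array 1 share the date in the names of their array files, and RASSF9-/- array 2 has another. The signal of Rassf9 itself was lower on both RASSF9-/- arrays at each of its probe sets. The brighter one had 478 for WT, 59.6 for array 1 and 120 for array 2 (limma adjusted p = 0.530). The brightest probe set for Bacillus RNA, which mouse cells do not make, had a signal of 78.4, and this was taken as the limit of the background. Over the 11089 genes that could be tested, limma called 9 genes changed at an adjusted p under 0.05, which is 0.0812% of them, all of them higher. No spread can be read from a single array, so none came from WT. For each gene, the RASSF9-/- pair supplied 1 residual degree of freedom. A prior over the genes tested, with a trend on intensity, supplied 5.31 (median). The standard errors, intervals and p-values of limma therefore rest mostly on this prior, and the small number of arrays limits the precision.

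No gene of the pathway examined here passed the test, and 1 of them stood apart by size. Ankrd1, a muscle ankyrin-repeat protein induced by YAP, had a higher signal on both RASSF9-/- arrays at both of its probe sets. Its difference was several-fold, while the mean of both arrays differed from WT by less than 1 on the log2 scale for the other 8 genes measured. Stk4 was higher and Sav1 lower on both RASSF9-/- arrays at every probe set. The arrays lay on either side of WT for Lats1, the probe sets of Lats2 did not point one way, and Amotl2 lay close to WT. The connective tissue growth factor Ccn2 and the matricellular protein Ccn1 differed between the RASSF9-/- arrays themselves. All 9 genes passed the filter on low signal. By limma, 0 of the 9 were called, against 0.0812% of all genes, and 1 (Ankrd1) had an unadjusted p under 0.05, against 5.55% of all genes (3.11% higher and 2.43% lower). Ankrd1 was also the 1 gene of the 9 that differed at least 2-fold on both RASSF9-/- arrays in one direction, which 2.89% of all genes did upwards and 2.24% downwards. Of the 21 probe sets past the filter, 7 were above WT on both arrays and 5 below, beside 31.7% and 34.3% of all 22519 probe sets past it. The methods name t-tests for statistical significance in general, and GeneSpring for the arrays. A t-test on the same values, with 1 degree of freedom from the RASSF9-/- pair, was run as an alternative. It gave 1 gene of the 9 (Stk4) before adjustment, beside 4.45% of all genes, and 0 after it.

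**Figure D1:**
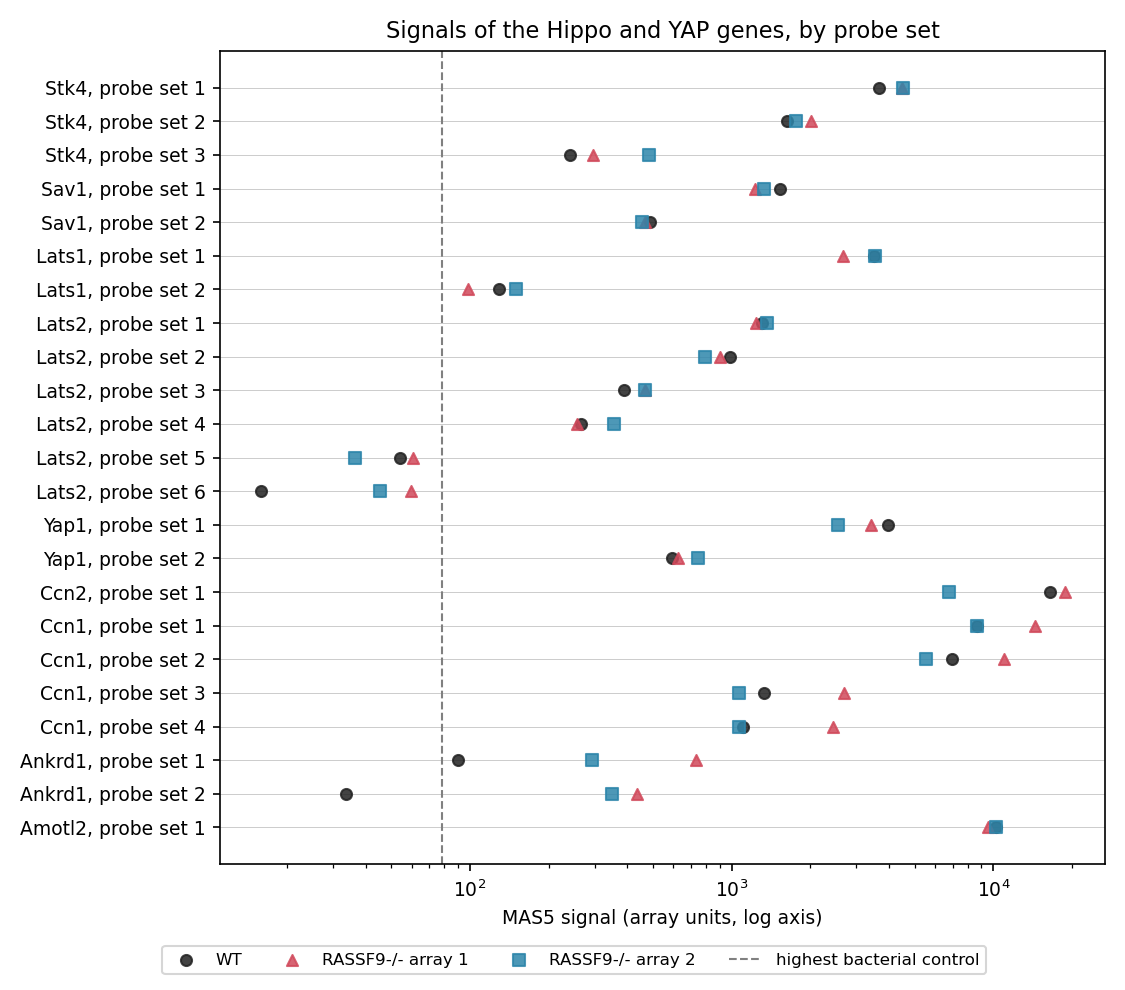
MAS5 signal (array units, log axis) of the 23 probe sets, numbered within each gene from the brightest, with one symbol per array and the background limit (78.4) as a dashed line. Symbols of both RASSF9-/- arrays lie to the right of WT at both Ankrd1 probe sets, and for Ccn1 array 1 lies to the right and array 2 at or to the left of WT.

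Among the kinases, Stk4 (MST1) had 3 probe sets, and the signal was above WT on both RASSF9-/- arrays at each of them. At the brightest, it was 3646 for WT, 4473 for array 1 and 4529 for array 2. The next gave 1628 for WT, 2010 for array 1 and 1768 for array 2, and the dimmest 242, 295 and 486 in the same order. The groups did not overlap at any of the 3, as for the 31.7% of all probe sets past the filter that were above WT on both and the 34.3% below, and the distance was small at the brighter probe sets. In the fit of the brightest probe set, the fold of RASSF9-/- over WT was 1.23, with a 95% interval from 0.718 to 2.12 (adjusted p = 1.00 from limma). The RASSF9-/- arrays differed from each other by only 0.02 on the log2 scale at that probe set, and a pair difference larger than this was seen in 97.4% of genes.

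Sav1, the scaffold that joins the MST kinases to their substrates, was below WT on both RASSF9-/- arrays at both probe sets. Signals were 1531 for WT, 1232 for array 1 and 1330 for array 2 at the brighter, a log2 fold change of -0.26 (SE, the standard error, 0.37, limma adjusted p = 1.00). At the other they were 487 for WT, 467 for array 1 and 454 for array 2. The fold of the brighter probe set was 0.836, with a 95% interval from 0.450 to 1.55. This distance from WT was smaller than the standard error.

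Lats1, which phosphorylates YAP, had RASSF9-/- signals on either side of WT. Its brighter probe set gave 3493 for WT, 2658 for array 1 and 3538 for array 2, and the dimmer one 129, 98.6 and 150. At both, array 1 was about as far below WT, at 76.1% and 76.2% of it, while array 2 was above. The fit of the brighter probe set had a log2 fold change of -0.19 (SE 0.36, limma adjusted p = 1.00).

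Lats2, the other LATS kinase, had 6 probe sets, and they did not point one way. The brightest is of the _x_at type, whose probes may also bind other transcripts, with 1304 for WT, 1239 for array 1 and 1360 for array 2. The second gave 987 for WT, 901 for array 1 and 789 for array 2, below WT on both. The third gave 387 for WT, 466 for array 1 and 467 for array 2, above WT on both. Another, with 266 for WT, 256 for array 1 and 355 for array 2, lay on either side. The last 2 were under the background limit on all 3 arrays and did not pass the filter. In the fit of the brightest, the fold was 0.996, with a 95% interval from 0.533 to 1.86 (adjusted p = 1.00 from limma). The motif copy printed above for Lats2 thus stands beside a gene whose probe sets showed no common direction.

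Over the 4 genes of the kinase group with a signal, 1 was above WT on both RASSF9-/- arrays, 1 below and 2 on either side. Of all genes tested, 33.6% were above WT on both, 32.7% below and 33.7% on either side. The median log2 fold change of the group was -0.10, with -0.19 on array 1 and 0.04 on array 2, beside -0.01 over all genes tested.

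YAP itself, encoded by Yap1, gave opposite directions at its 2 probe sets. Signals of the brighter were 3957 for WT, 3414 for array 1 and 2541 for array 2. The log2 fold change was -0.43 (SE 0.36, limma adjusted p = 1.00), or 86.3% of WT on array 1 and 64.2% on array 2. The dimmer one, of the _a_at type that covers several transcripts of a gene, had 594 for WT, 625 for array 1 and 745 for array 2. Both RASSF9-/- arrays were thus below WT at one probe set and above it at the other, and with the mean of the probe sets the log2 fold change was -0.11.

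Of the YAP targets, Ankrd1 had the largest difference of the genes examined. The brighter probe set read 89.9 for WT, 734 for array 1 and 293 for array 2. The other had 33.6 for WT, 434 for array 1 and 349 for array 2. WT lay just above the background limit at the first and under it at the second, and every RASSF9-/- signal was well above it. For the brighter probe set, the fold was 5.16, with a 95% interval from 1.65 to 16.2, and the log2 fold change 2.37 (SE 0.68, limma adjusted p = 0.576). On the single arrays the log2 difference from WT was 3.03 for array 1, which shares the array date with WT, and 1.71 for array 2. Only 1.2% of the 11089 genes had a larger absolute log2 fold change, and Ankrd1 was number 77 from the highest. For the other probe set, the signal was at least 4.97-fold higher in RASSF9-/-, with WT set to the background limit. A fit of limma over all 22519 probe sets past the filter gave it an adjusted p = 0.180, and it passed that filter only through the RASSF9-/- arrays. The 2 copies of the TEAD motif printed above lie in the window of this gene. Windows of Sav1, Lats2, Yap1, Ccn1 and Amotl2, which did not share its difference, hold the motif too. A link between the motif and the signal was not tested.

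Ccn1 had 4 probe sets, which showed one pattern. At the brightest, the signal was 8694 for WT, 14370 for array 1 and 8685 for array 2. The second had 6980 for WT, 11005 for array 1 and 5534 for array 2. The remaining pair gave 1330 and 1105 for WT, 2682 and 2450 for array 1, and 1072 and 1071 for array 2. At all 4, array 1 was above WT, by 0.66 to 1.15 on the log2 scale, and array 2 was at or below it, with differences from -0.33 to 0.00. The fit of the brightest had a log2 fold change of 0.36 (SE 0.40, limma adjusted p = 1.00). Array 2 minus array 1 was -0.73 on the log2 scale there and -0.99, -1.32 and -1.19 at the other probe sets, each larger in size than the mean distance from WT.

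Ccn2, a secreted protein of the same family and a widely used readout of YAP, has 1 probe set. Its signal was 16415 for WT, 18701 for array 1 and 6795 for array 2. Array 1 was at 113.9% of WT and array 2 at 41.4%. The log2 fold change of -0.54 (SE 0.59, limma adjusted p = 1.00) therefore averages arrays on opposite sides of WT. The RASSF9-/- pair differed by -1.46 on the log2 scale, and only 5.7% of genes had a larger pair difference. As with Ccn1, the higher signal was on the array that shares its date with WT. The RASSF9-/- arrays differ in date, mouse and culture at once, so the part of each in this difference cannot be told apart.

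Amotl2, an angiomotin-like protein that holds YAP at cell junctions and is itself a YAP target, was nearly level. Signals were 10248 for WT, 9566 for array 1 and 10211 for array 2. The fold was 0.964, with a 95% interval from 0.575 to 1.62 (adjusted p = 1.00 from limma). Array 1 was at 93.3% of WT and array 2 at 99.6%.

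**Figure D2:**
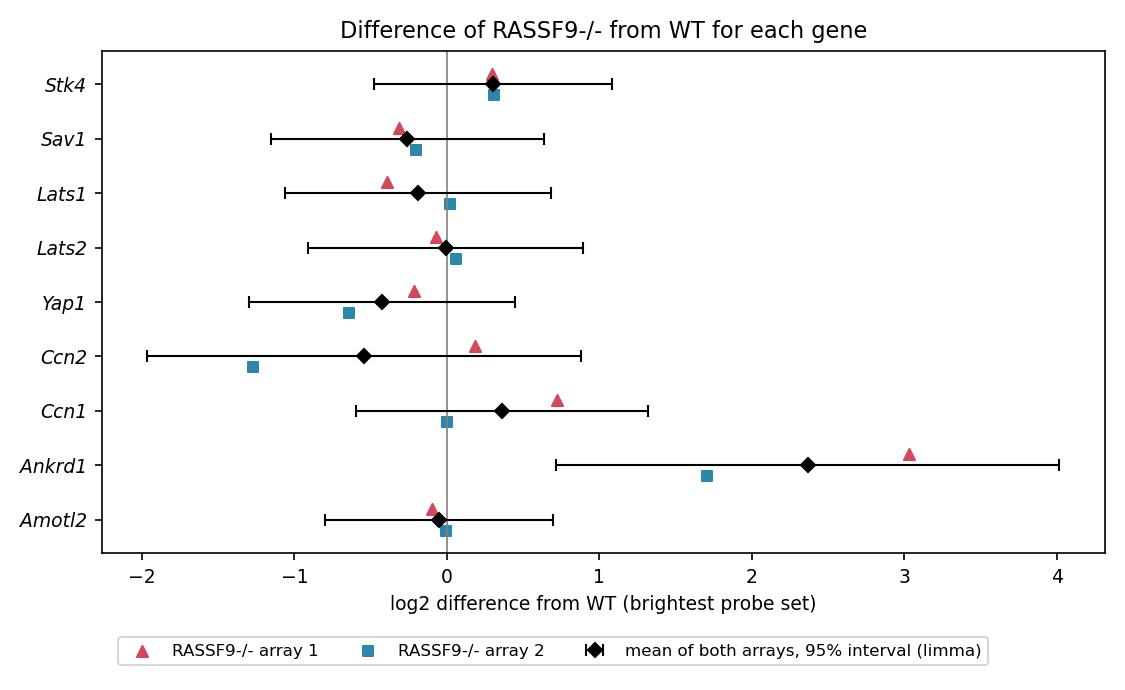
Log2 difference from WT of the brightest probe set of each gene, for RASSF9-/- array 1 (triangles), array 2 (squares) and their mean with its 95% interval from limma (diamonds). The interval of Ankrd1 runs from 0.72 to 4.02 and lies above 0, those of the other 8 genes include 0, and the arrays lie on opposite sides of 0 for Ccn2.

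The 4 target genes thus showed no shared direction. Of these, 1 was above WT on both RASSF9-/- arrays, 1 was below on both and 2 were on either side, beside 33.6%, 32.7% and 33.7% of all genes tested. Their median log2 fold change was 0.16, with 0.46 on array 1 and 0.00 on array 2, and it was -0.05 with the filter at the 75th percentile, which leaves out Ankrd1. For Ankrd1, Ccn1 and Ccn2, the signal was higher on array 1, with a log2 difference of array 2 from array 1 of -1.32, -0.73 and -1.46 at the brightest probe set. The pair difference of Amotl2 was 0.09 in the other direction. Over the 9 genes, the median absolute log2 fold change was 0.30, and over all genes it was 0.32. The median absolute difference of the RASSF9-/- pair was 0.41 for the 9 genes and 0.38 for all genes.

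**Figure D3:**
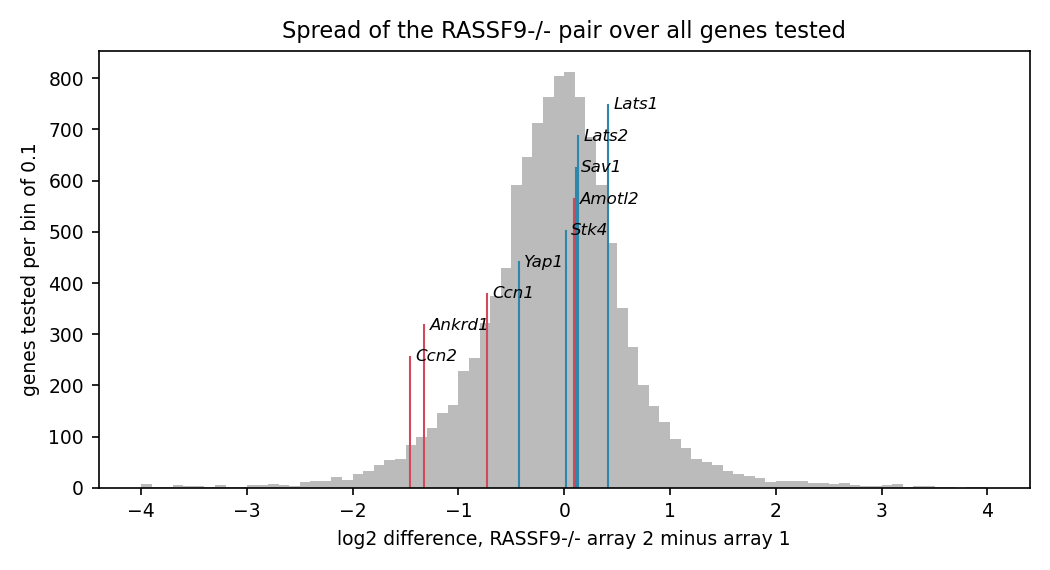
Number of genes tested (grey bars, bins of 0.1) by the log2 difference of RASSF9-/- array 2 from array 1, with values beyond 4 drawn at the edge, and the genes examined as lines (red for YAP targets, blue for the kinases, Sav1 and Yap1). Ccn2 (-1.46) and Ankrd1 (-1.32) lie in the left tail, and Stk4 (0.02) lies at the centre.

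Regulators and adaptors around the Hippo kinases, called the upstream list here, were taken as 23 genes, of which 21 could be tested. Their roles differ, and not all of them act upstream of the kinases. The counts and the median of the list therefore do not show the state of the cascade. By limma, 0 were called, against 0.0812% of all genes, and 1 (Taok1) had an unadjusted p under 0.05, against 5.55%. There were 6 above WT on both RASSF9-/- arrays, 7 below and 8 on either side, beside 33.6%, 32.7% and 33.7% of all genes. The median log2 fold change was -0.05, beside -0.01 over all genes. Frmd6, a FERM-domain protein that activates the cascade, had 2660 for WT, 3669 for array 1 and 3591 for array 2. Wwc2, a relative of the LATS activator KIBRA, had 2602 for WT, 1906 for array 1 and 1583 for array 2, and its 5 probe sets, 4 of them past the filter, were all below WT on both. Stk38l, an NDR kinase related to LATS, had 678 for WT, 531 for array 1 and 329 for array 2. The MST-activating kinase Taok1 had 1260 for WT, 2494 for array 1 and 2729 for array 2, a log2 fold change of 1.05 (SE 0.35, limma adjusted p = 0.737). Taok1 is uncertain, because a second probe set nearly as bright gave 2294 for WT, 2024 for array 1 and 1811 for array 2. The choice between them turned the direction with quantile normalization (-0.26). With the mean of its probe sets, the log2 fold change of Taok1 was 0.08.

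TAZ (Wwtr1), the TEAD factors and the VGLL cofactors, called the partners here although their roles differ, were taken as a list with 8 of 9 genes tested. By limma, 0 were called and 0 had an unadjusted p under 0.05, beside 0.0812% and 5.55% of all genes. One was above WT on both RASSF9-/- arrays, 3 were below and 4 on either side, beside 33.6%, 32.7% and 33.7% of all genes. Their median log2 fold change was -0.10, beside -0.01 over all genes. Wwtr1, the paralogue of YAP, had 3255 for WT, 2702 for array 1 and 1944 for array 2, below WT on both. Another of its 3 probe sets lay on either side, with 1890 for WT, 2087 for array 1 and 1297 for array 2. Tead1 had 2615 for WT, 3445 for array 1 and 2912 for array 2, while its dimmer probe set lay on either side of WT, with 149, 86.3 and 223, and the log2 fold change was 0.09 with the mean of both. Tead3 had 731 for WT, 429 for array 1 and 471 for array 2, below WT on both at its single probe set. Vgll4, which competes with YAP for TEAD factors, had 498 for WT, 355 for array 1 and 280 for array 2. The difference on the log2 scale was -0.51 for Wwtr1, 0.28 for Tead1, -0.70 for Tead3 and -0.66 for Vgll4 (adjusted p = 1.00 for each from limma).

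A list of 20 further YAP and TAZ target genes had 17 tested. By limma, 0 were called and 3 (Igfbp3, Tgfb2 and Birc5) had an unadjusted p under 0.05, beside 0.0812% and 5.55% of all genes. Of the 17, 10 were above WT on both RASSF9-/- arrays, 3 were below and 4 on either side, beside 33.6%, 32.7% and 33.7% of all genes, with a median log2 fold change of 0.30 (0.34 on array 1 and 0.32 on array 2), beside -0.01 over all genes. Ajuba and Amotl1 also stand in the upstream list. Without them, 9 of 15 were above WT on both. Birc5 passed the filter only through the RASSF9-/- arrays. Without it, 9 of 16 were above WT on both, 3 below, 2 had an unadjusted p under 0.05 and the median was 0.29. The list was described by these counts and not tested as a set. Igfbp3, a binding protein of insulin-like growth factors, had 3106 for WT, 10819 for array 1 and 18096 for array 2, and its other bright probe set gave 2066, 8965 and 14334. Its log2 fold change was 2.17 (SE 0.40, limma adjusted p = 0.324). The growth factor gene Tgfb2 had 236 for WT, 747 for array 1 and 480 for array 2, and was above WT on both at all 3 of its probe sets that passed the filter. Asap1, a regulator of ARF proteins, had 395 for WT, 591 for array 1 and 628 for array 2, but another of its probe sets was below WT on both, with 127, 116 and 90.8, and with the mean of its probe sets the log2 fold change went from 0.63 to 0.18. Birc5, the mitotic and survival protein survivin, had 29.8 for WT, 218 for array 1 and 588 for array 2, at least 4.56-fold higher with WT in the background. Birc5 is also a gene of dividing cells.

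**Figure D4:**
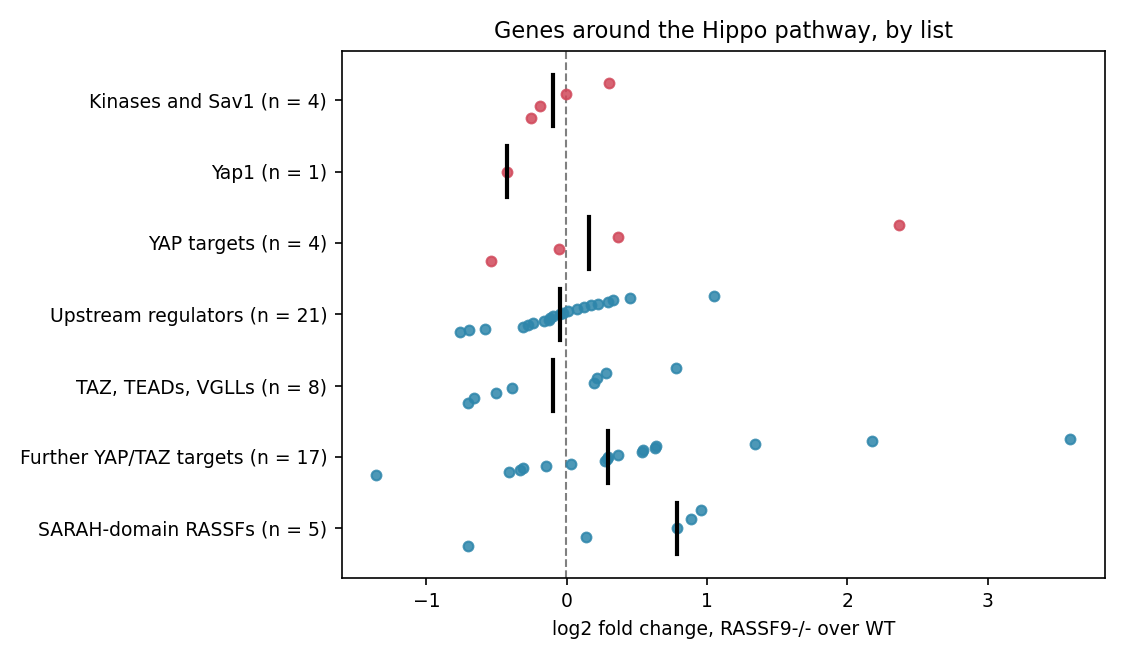
Log2 fold change of RASSF9-/- over WT for each gene tested (points) in the genes examined (red) and the further lists (blue), with the median of each list as a black bar and that of all genes tested (-0.01) as a dashed line. The kinases and the upstream list lie around the dashed line, and the point of the YAP targets at 2.37 is Ankrd1.

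For the RASSF genes whose products carry the SARAH domain, 5 of 6 were tested. By limma, 0 were called and 0 had an unadjusted p under 0.05, beside 0.0812% and 5.55% of all genes. Of the 5, 4 were above WT on both RASSF9-/- arrays and 1 below, beside 33.6% and 32.7% of all genes. Rassf1, which binds the MST kinases, had 3646 for WT, 5801 for array 1 and 6818 for array 2, Rassf5 had 776, 1063 and 1932, and Rassf6 had 87.4, 236 and 122. A second bright Rassf1 probe set had 1645 for WT, 3606 for array 1 and 4275 for array 2. At a dimmer Rassf1 probe set, with 221 for WT, 156 for array 1 and 412 for array 2, the arrays lay on either side of WT. Rassf4 was below WT on both, with 142 for WT, 121 for array 1 and 62.5 for array 2. Its array 2 signal was under the background limit (78.4), and the WT signal of Rassf6 was just above it. The median log2 fold change was 0.79, with 0.46 on array 1 and 0.48 on array 2, beside -0.01 over all genes. With the filter at the 75th percentile, only 2 genes of the list remained, Rassf1 and Rassf5.

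The labelled cell type was checked through its markers. The basal keratins were bright on every array, with Krt14 at 38140 for WT, 38752 for array 1 and 38300 for array 2 and Krt5 at 34842, 27760 and 34616. Of the 7 basal markers, Krt15 was in the background. Of the 6 tested, 0 were called by limma and 1 (Trp63) had an unadjusted p under 0.05, beside 0.0812% and 5.55% of all genes. There was 1 above WT on both RASSF9-/- arrays, with 3 below and 2 on either side, beside 33.6%, 32.7% and 33.7% of all genes. Trp63, the transcription factor p63 of basal cells, had 3239 for WT, 1460 for array 1 and 1543 for array 2. Its log2 fold change was -1.11 (limma adjusted p = 0.689). The hemidesmosome collagen Col17a1 had 9366 for WT, 3812 for array 1 and 10303 for array 2, low on array 1 alone. The sum over the 7, mostly from Krt14 and Krt5, was 95031 for WT, 79540 for array 1 and 95078 for array 2. In bulk RNA, fewer cells of a type and less RNA per cell cannot be told apart. Ccn1, Ccn2 and Ankrd1 are also made by fibroblasts, smooth muscle, endothelium or muscle, so markers of these were read beside them. The summed signal of 7 fibroblast markers with a probe set was 1425 for WT, 1133 for array 1 and 888 for array 2. The lower sums came from Col1a2 (460, 247 and 166 in the same order) and Col1a1 (429, 243 and 143). Col3a1 (106, 151 and 86.1) and Dcn (197, 189 and 301) lay on either side of WT. Pdgfra and Pdgfrb were below WT on both, with array 2 under the background limit. Lum, which did not pass the filter, was above WT on both (21.1, 106 and 48). For 6 smooth muscle and pericyte markers the summed signal was 24315 for WT, 7541 for array 1 and 9193 for array 2. Nearly all of it came from Acta2 and Tagln, and Myh11 was in the background on every array. Acta2 had 16866 for WT, 4892 for array 1 and 6742 for array 2, and Tagln had 7115, 2424 and 2323. The endothelial sum was 286 for WT, 358 for array 1 and 378 for array 2, with Pecam1, Cdh5 and Vwf under the background limit. For striated muscle, Myog, Myh3 and Myh8 were in the background on every array. The actin gene Acta1 had 931 for WT, 2484 for array 1 and 3424 for array 2, above WT on both. Actc1, with 88.6 for WT, 140 for array 1 and 82.7 for array 2, lay on either side of WT. Ckm (77.3, 103 and 86.6) was near the background limit and passed the filter only through the RASSF9-/- arrays. The melanocyte sum was 28210 for WT, 24141 for array 1 and 33895 for array 2, and that of leukocyte markers 1647, 2229 and 2663, with Ptprc in the background. The part of other cells in the Ccn1, Ccn2 and Ankrd1 signals was not tested.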

How the data were processed

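Primary keratinocytes of 1 WT and 2 RASSF9-/- samples were measured on Affymetrix GeneChip Mouse Genome 430 2.0 Arrays. The authors deposited MAS5 signals, intensities on a linear scale, for 45101 probe sets, scaled so that the mean without the top and bottom 2% was 500, which was checked on the values. The version of MAS5 is not given in the sources used here, and the table holds no detection calls. The methods name GeneSpring, which was not run. From the signals, log2 values were computed with no further normalization and no pseudocount. The platform annotation gives 1 symbol to 34945 probe sets, several to 932 and none to 9160, and RefSeq (GRCm38.p6) changed 0 symbols. Probe sets whose mean log2 signal was below the 50th percentile (82.7 as a signal) were left out, and of the rest the brightest stood for its gene, for 11089 genes. The difference of RASSF9-/- from WT was tested, two-sided, in R 4.3.3 with limma 3.58.1 (lmFit, then eBayes with a trend on intensity), with p-values adjusted by Benjamini-Hochberg over all genes and calls made under 0.05. The fit has 1 residual and 5.31 prior degrees of freedom. Array date was not a term, because no residual degree of freedom would remain. Where a signal was under the highest of 27 Bacillus subtilis control probe sets (78.4), it was set to that value for a fold given as a lower bound. Gene lists are described by counts and medians without a test. The genes, lists and alternatives were chosen with earlier results of these data known. Named were all genes examined and, of each further pathway list, up to 4 tested genes on the same side of WT on both RASSF9-/- arrays with the largest value of the smaller difference. Markers were named by brightness or where a result touched them. The procedure was run on simulated data whose spread was drawn from the variances of the same fit. Such data follow the model of the fit and do not show how it does on real arrays. Alternatives tried were scaling by the array median, quantile normalization, the filter left out or set to the 75th percentile and a pseudocount of 32. Others were background raised to the bacterial controls, the mean of probe sets and every probe set tested. The last were limma without the trend, a t-test and leaving out each RASSF9-/- array.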

Additional observations from a re-analysis of the deposited data

How the results depend on the processing

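No paired analysis was possible because there is 1 WT array. Of the 9 genes examined, 5 (Stk4, Sav1, Yap1, Ankrd1 and Amotl2) kept their direction under every one of the 12 alternatives that gave them a value, which leaves out the 75th percentile for Ankrd1, and limma called none of the 9 in any. Lats2 turned to 0.007 after division by the median, 0.002 with quantile normalization and 0.054 with the mean of probe sets. Without RASSF9-/- array 1 or array 2, Lats2 was at 0.061 or -0.074, Lats1 at 0.018 or -0.394, Ccn1 at -0.002 or 0.725 and Ccn2 at -1.272 or 0.188. Leaving out an array leaves 1 against 1, so no test and no count of calls was possible. Ankrd1 ranged from 2.03 to 2.95 in the tests (adjusted p from 0.306 to 0.997 from limma or the t-test). The 2.95 and the 0.306 (limma) came from the mean of probe sets. That mean takes in the dimmer probe set, whose WT signal was in the background and which passed the filter only through the RASSF9-/- arrays. Ankrd1 was at 1.71 without array 1 and 3.03 without array 2, and did not pass the filter at the 75th percentile. Of the other 22 genes followed, Taok1 turned to -0.26 with quantile normalization, and Krt14 to -0.14 with it and -0.33 with the mean of probe sets. The t-test without adjustment called Stk4 (1 gene examined), Frmd6 and Tagln. The 9 calls over all genes were 5 at the 75th percentile or with the pseudocount, and 0 with quantile normalization, raised background or no trend. The t-test gave 493 (258 higher, 235 lower), or 4 (3 and 1) after adjustment, and 1 lower call came from division by the median and from every probe set. The median of the further targets was 0.33 with quantile normalization, 0.28 at the 75th percentile, 0.18 with the mean of probe sets, 0.25 over every probe set and 0.32 to 0.34 without an array. That of the SARAH-domain RASSF genes was 0.76 with quantile normalization, 0.84 with no filter or the 75th percentile, 0.75 with the mean of probe sets, 0.77 with the pseudocount and 0.46 to 0.48 without an array. The partners were at 0.19 with no filter, which adds Vgll1 in the background, and -0.48 to -0.14 without an array. The median of the 4 targets examined was -0.052 at the 75th percentile, 0.092 with quantile normalization, 0.356 over every probe set and -0.003 or 0.456 without array 1 or array 2. That of the kinases ranged from -0.194 to 0.04 and that of the upstream list from -0.11 to 0.078, in each case without an array. Over every probe set, the kinases were at -0.006. With the mean of probe sets, Asap1 was at 0.18, Tead1 at 0.086 and Yap1 at -0.113. Low WT signals of Ankrd1 and Birc5 limit their folds to bounds or wide intervals.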

Other observations

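The TEAD motif was also counted in the promoter windows of the further lists. It was present in 6 of 19 genes of the upstream list with a window and 5 of 7 of TAZ, the TEAD factors and the VGLL cofactors. The motif was in 3 of 14 further YAP and TAZ target genes and 1 of 5 SARAH-domain RASSF genes, beside 16.6% of all genes with a window. These counts are descriptions, were not tested and rest on windows of 300 bases or on several such windows for a gene with several start sites.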
